A study of Mus musculus with 27 samples.

Results

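The small leucine-rich proteoglycans are secreted proteins of the extracellular matrix, and the mRNAs of 9 of them, Fmod, Prelp, Lum, Dcn, Aspn, Omd, Ogn, Podn and Bgn, were followed out of 24825 genes in C2C12 cells. The 9 genes were chosen by family membership together with a measured value, since Fmod was among the strongest rises with NFIA at day 0. That choice used the contrast of full-length NFIA-expressing and control cells at day 0, so the day 0 values of this contrast are given below as a description without a test, as are all day 0 differences of Fmod. C2C12, an established line of mouse myoblasts, can fuse into muscle fibers, and NFIA is a transcription factor of the nuclear factor I family that directs precursor cells towards brown adipocytes. RNA-seq of polyadenylated RNA was performed with 3 replicates in each of 9 groups, which combine 3 cell types with 3 conditions. The cell types were control C2C12 cells (ctrl), C2C12 cells given 3xFLAG-tagged full-length NFIA by retrovirus, and C2C12 cells given the 3xFLAG-tagged Δpro#3 mutant, which lacks the most C-terminal stretch of the proline-rich domain. The conditions were day 0, day 7 of adipocyte differentiation and day 7 with 10 µM forskolin for 4 h, a drug that raises cyclic AMP. All cells, controls included, were differentiated in the same cocktail of isobutylmethylxanthine, indomethacin, dexamethasone, insulin, T3 and rosiglitazone, followed by insulin, T3 and rosiglitazone. Both constructs came from a retroviral vector and not from the endogenous gene, and the sources used here do not say whether replicates came from separate infections or cultures, so p-values measure only the spread between these samples.

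Small leucine-rich proteoglycans carry a horseshoe-shaped core of leucine-rich repeats that binds collagen, and most of them bear glycosaminoglycan chains. They set the spacing and thickness of collagen fibrils in tendon, skin, cornea and muscle connective tissue, and decorin and biglycan also bind TGF-beta. Fibromodulin (Fmod), lumican (Lum), PRELP (Prelp) and osteomodulin (Omd) are class II members, several of which carry keratan sulfate. Decorin (Dcn), biglycan (Bgn) and asporin (Aspn) are class I members, of which decorin and biglycan carry chondroitin or dermatan sulfate and asporin carries an aspartate-rich stretch instead. Osteoglycin (Ogn, also called mimecan) is a class III member, and podocan (Podn) belongs to a further class.

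Of the 9 genes, 7 lie in 3 groups of neighbours in the mouse genome (mm9, NCBIM37). Fmod (chr1:135933831-135944854, plus strand) and Prelp (chr1:135806881-135817991, minus strand) stood 115.839 kb apart with 0 protein-coding genes between them. Dcn (chr10:96942245-96980777) and Lum (chr10:97028135-97035337), both on the plus strand, were 47.357 kb apart. Aspn (chr13:49639812-49662926), Omd (chr13:49678135-49687978) and Ogn (chr13:49703440-49719869) followed each other on the plus strand with gaps of 15.208 and 15.461 kb. Podn (chr4:107687396-107704942, minus strand) and Bgn (chrX:70728941-70741272, plus strand) stood alone. The gene Cenpp spans Aspn, Omd and Ogn on the opposite strand without sharing an exon with them, and its own level was between 0.715 and 16.8 FPKM over the 27 samples. An antisense transcript, Gm15851, overlaps exons of Prelp. Fragments were assigned by the authors to the strand they came from.

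The promoters are shown because the cells were given a DNA-binding protein, and NFI proteins bind the motif TTGGC, which reads as GCCAA on the other strand. RefSeq windows of 300 bases, from 250 before to 50 after the gene start, were given for 7 of the 9 genes on GRCm38.p6, a build other than that of the expression files. Dcn and Lum had no entry. The capitals mark each motif of either strand, and each sequence runs 5′ to 3′ along its gene.
Fmod: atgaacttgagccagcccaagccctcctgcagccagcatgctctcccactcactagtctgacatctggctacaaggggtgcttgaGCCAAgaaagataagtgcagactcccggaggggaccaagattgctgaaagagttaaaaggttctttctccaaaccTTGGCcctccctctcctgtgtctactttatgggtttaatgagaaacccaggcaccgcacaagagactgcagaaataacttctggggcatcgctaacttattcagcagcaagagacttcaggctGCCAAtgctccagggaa
Prelp: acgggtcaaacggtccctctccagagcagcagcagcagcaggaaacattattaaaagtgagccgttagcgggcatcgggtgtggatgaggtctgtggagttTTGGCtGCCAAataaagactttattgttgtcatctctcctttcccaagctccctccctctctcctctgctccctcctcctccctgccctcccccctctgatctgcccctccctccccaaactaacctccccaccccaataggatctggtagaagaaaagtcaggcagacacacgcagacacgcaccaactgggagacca
Aspn: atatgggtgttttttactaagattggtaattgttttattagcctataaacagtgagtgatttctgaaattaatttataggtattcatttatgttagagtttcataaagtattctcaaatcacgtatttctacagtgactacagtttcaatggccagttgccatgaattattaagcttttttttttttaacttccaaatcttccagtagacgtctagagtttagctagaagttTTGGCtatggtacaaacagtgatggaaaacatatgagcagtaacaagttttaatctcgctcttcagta
Omd: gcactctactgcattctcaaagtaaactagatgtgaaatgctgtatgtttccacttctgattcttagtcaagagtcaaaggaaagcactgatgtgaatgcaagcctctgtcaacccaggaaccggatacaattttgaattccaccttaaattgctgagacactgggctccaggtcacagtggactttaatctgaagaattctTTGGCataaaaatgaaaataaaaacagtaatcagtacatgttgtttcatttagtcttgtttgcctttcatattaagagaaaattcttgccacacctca
Ogn: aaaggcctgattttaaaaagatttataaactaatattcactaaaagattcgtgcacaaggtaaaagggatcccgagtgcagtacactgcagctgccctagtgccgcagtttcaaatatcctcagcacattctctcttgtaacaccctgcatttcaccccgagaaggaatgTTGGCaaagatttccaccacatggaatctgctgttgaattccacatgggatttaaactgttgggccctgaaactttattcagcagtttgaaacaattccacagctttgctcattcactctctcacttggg
Podn: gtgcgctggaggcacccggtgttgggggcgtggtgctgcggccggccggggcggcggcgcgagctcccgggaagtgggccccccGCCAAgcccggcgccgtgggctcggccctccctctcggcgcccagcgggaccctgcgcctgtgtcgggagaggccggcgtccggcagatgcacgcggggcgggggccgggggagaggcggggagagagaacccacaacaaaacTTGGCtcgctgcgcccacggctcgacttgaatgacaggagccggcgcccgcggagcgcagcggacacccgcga
The windows lie at chr1:134037004-134037303 (Fmod, plus), chr1:133921352-133921651 (Prelp, minus), chr13:49544193-49544492 (Aspn, plus), chr13:49582212-49582511 (Omd, plus), chr13:49607765-49608064 (Ogn, plus) and chr4:108031905-108032204 (Podn, minus). Fmod held 3 such motifs, Prelp held 2 that are separated by 1 base, and Podn held 2 in the window shown and 0 in its second window. Aspn, Omd and Ogn held 1 each and Bgn held 0. Of 32851 RefSeq windows of the same length, 46.7% held at least 1 motif and 14.4% held at least 2. The full site, in which TTGGC is followed by GCCAA after a spacer of 5 bases, was in 12 of those windows (0.0365%) and in 0 of the 8 windows of these genes. A match of 5 bases is a description of the window and does not show that NFIA binds there.

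**Figure D1:**
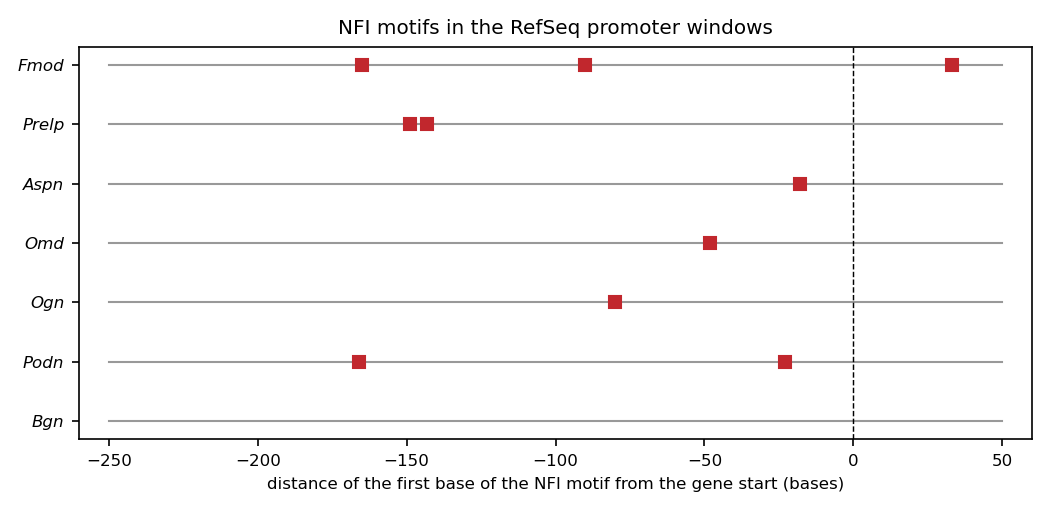
Distance in bases of the first base of each NFI motif (TTGGC on either strand, red squares) from the gene start (dashed line) in the RefSeq promoter windows, drawn as gray lines, for 7 genes, with the first of the 2 Podn windows. Fmod shows 3 motifs, Prelp and Podn 2 each, Aspn, Omd and Ogn 1 each, and Bgn 0.

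Expression was given by the authors as FPKM, the share of a sample's fragments per kilobase of transcript, which allows levels of different genes to be compared per length. The depth was 9567769 to 27230965 fragments per sample. Nfia itself was at 0.175 to 7.35 FPKM in control cells at day 0, at 225 to 250 FPKM with full-length NFIA and at 397 to 423 FPKM with the Δpro#3 mutant, so the libraries with and without a construct matched their labels. At day 7 Nfia was at 457 to 528 FPKM with full-length NFIA and 374 to 480 FPKM with the mutant, and with forskolin at 497 to 594 and 262 to 344 FPKM, so that the mean was higher for the mutant at day 0 and for full-length NFIA at day 7 in both conditions, with overlapping samples without forskolin. The part of these levels in the differences between the constructs was not tested. Replicate 2 of the control cells at day 0 was the highest of its group for Nfia (7.35 FPKM) and also for Fmod and Prelp. As to the labelled cell type, all 9 muscle markers had a mean of 1 FPKM or more in control cells at both times, with summed levels of 1174 to 1208 FPKM at day 0. The 4 endothelial markers summed to less than 0.5 FPKM in every sample, and of the 4 macrophage markers only Cd68 reached 1 FPKM. These are bulk samples, in which fewer cells of a type and less RNA per cell cannot be told apart.

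The first question was what the 9 genes did in undifferentiated cells. At day 0, full-length NFIA-expressing cells had far higher levels of Fmod, Prelp and Omd and lower levels of Lum than control cells. Fmod, which helps to assemble collagen fibrils, was at 0.135, 0.717 and 0.184 FPKM in control cells and at 134, 136 and 148 FPKM with full-length NFIA. Its neighbour Prelp, a heparin-binding matrix protein, was at 2.70, 7.09 and 3.36 FPKM in control cells and at 256, 274 and 276 FPKM with full-length NFIA. Omd, known from mineralizing tissue, was at 4.80 ± 0.328 FPKM (SD, n = 3) in control cells and at 28.0 ± 3.08 FPKM with full-length NFIA. The full-length NFIA and control samples did not overlap in any of the 9 genes, so separation alone does not single out these 3. The share of all genes without overlap was not counted. Lum, a keratan sulfate proteoglycan of the cornea and skin, was at 6.72 FPKM on average (6.24 to 7.39) in control cells and 1.31 ± 0.481 FPKM with full-length NFIA, and Dcn at 116 ± 4.84 and 64.2 ± 10.7 FPKM. Smaller differences stood in Bgn, which was 1.59 times as high as in control cells, and in Aspn and Ogn, which were 1.28 and 1.24 times lower. Podn was at 0.0264 ± 0.0135 FPKM in control cells, where it rested on 7 fragments over 3 samples, and at 1.16 ± 0.0391 FPKM with full-length NFIA.

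The Δpro#3 mutant was compared with control cells at day 0 to see which of these levels were reached without the pro#3 domain. Fmod was at 17.8, 17.4 and 17.1 FPKM with the mutant, between the control and the full-length NFIA samples and overlapping neither. Prelp rose 6.05-fold over control cells, to 26.5 ± 0.877 FPKM (log2 difference of FPKM + 1 of 2.44 ± 0.22 SE, adjusted p = 3.26e-06, limma). Lum fell to 0.540 ± 0.0599 FPKM and Aspn to 13.9 ± 0.288 FPKM, with log2 differences of -2.32 ± 0.12 and -1.65 ± 0.07. Dcn fell to 44.0 ± 0.263 FPKM, 2.65 times lower than in control cells. Omd was at 6.26 ± 0.763 FPKM, 1.30 times its control level, where full-length NFIA had 5.83 times the control level. A gene was called where its adjusted p was under 0.05 and FPKM + 1 differed more than 3-fold, among genes with a mean of 0.5 FPKM or more in the samples fitted, which left out Podn at day 0. Of the 7 genes other than Fmod and Podn, 1 was called higher (Prelp) and 2 lower (Lum and Aspn), beside 0.859% and 1.32% of the 12105 genes tested. Against full-length NFIA-expressing cells, 0 of the 7 were called higher and 2 lower (Prelp and Omd) in Δpro#3 mutant-expressing cells, beside 0.925% and 1.12% of all genes. That comparison contains the full-length NFIA samples of day 0 by which Fmod was chosen. In the same samples the 9 muscle markers summed to 137 to 145 FPKM with full-length NFIA and 408 to 416 FPKM with the mutant. Summed adipocyte markers were at 40.5 to 49.1 FPKM in control cells, 432 to 459 with full-length NFIA and 318 to 335 with the mutant. Fibroblast and progenitor markers were at 395 to 417, 681 to 724 and 941 to 964 FPKM for the respective cell types. The part of these marker differences in the values above was not tested.

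**Figure D2:**
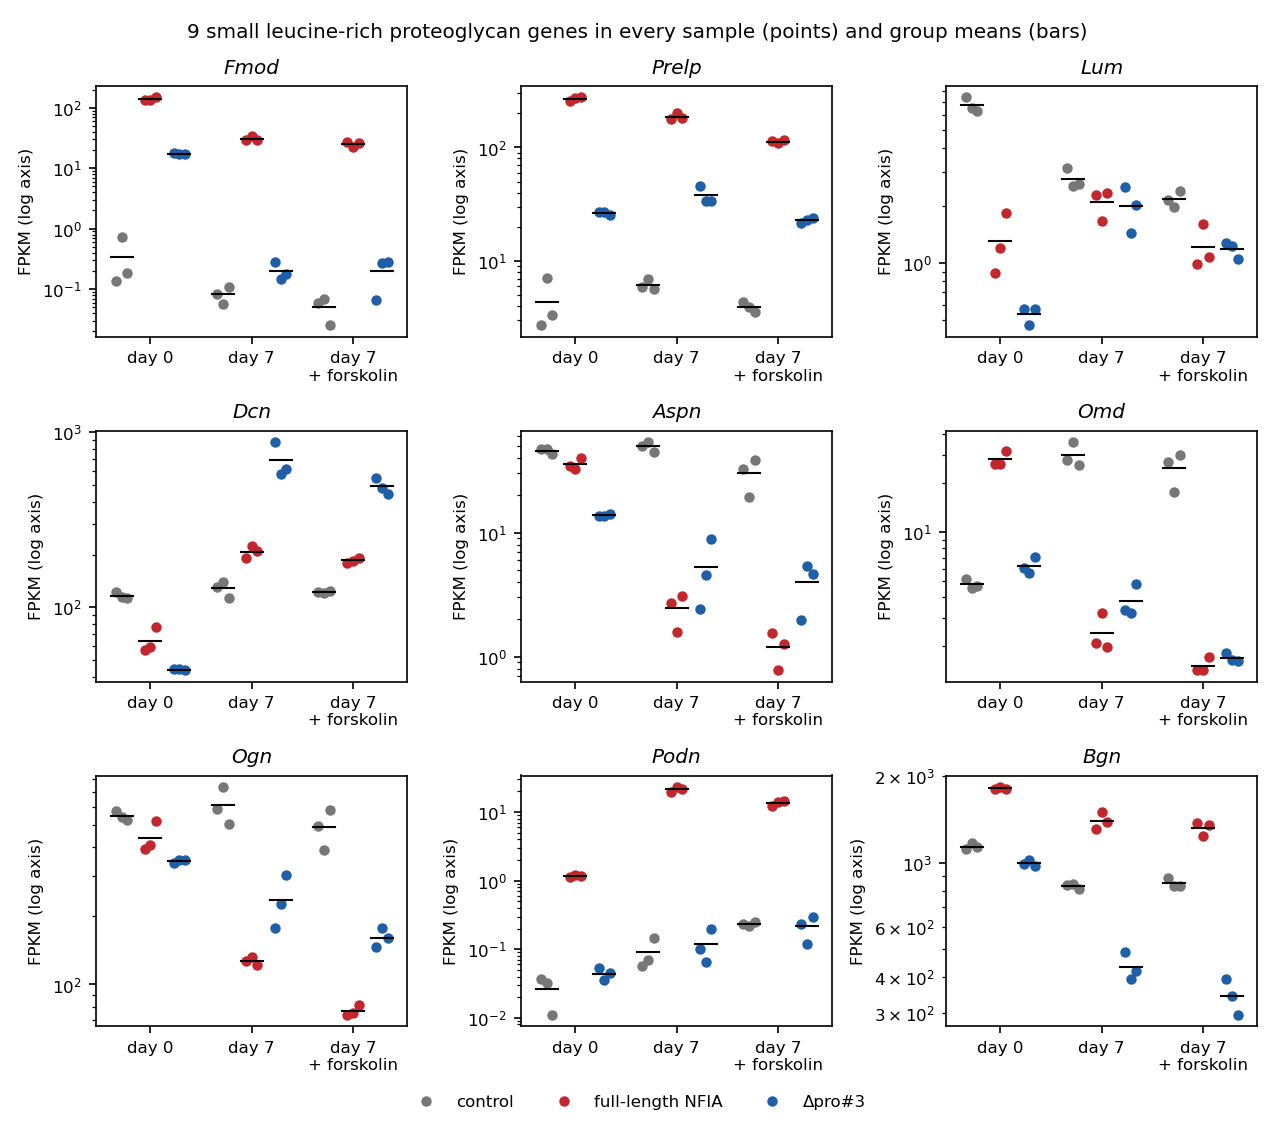
FPKM of each gene on a log axis in every sample (points: gray, control; red, full-length NFIA; blue, Δpro#3) at day 0, at day 7 and at day 7 with forskolin, with the mean of each group of 3 as a black bar. Fmod and Podn are above 10 FPKM at day 7 with full-length NFIA alone, Dcn is highest in Δpro#3 mutant-expressing cells at day 7, and Aspn, Omd and Ogn are lower with either construct than in control cells at day 7.

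At day 7, which the choice of genes did not use, full-length NFIA-expressing cells kept high levels of Fmod and Prelp, gained Podn, and had low levels of the chromosome 13 neighbours Aspn, Omd and Ogn. Fmod was at 0.0841, 0.0571 and 0.109 FPKM in control cells and at 28.9, 34.5 and 29.3 FPKM with full-length NFIA. The control level rested on 3 or 4 fragments per sample. Prelp was at 5.91, 6.88 and 5.66 FPKM in control cells and at 177, 202 and 181 FPKM with full-length NFIA, 30.3-fold higher. Podn, a matrix protein known to restrain smooth muscle growth, was at 0.0568, 0.0686 and 0.148 FPKM in control cells and at 19.7, 23.2 and 21.6 FPKM with full-length NFIA. The groups did not overlap in these 3 genes, nor in any of the other genes followed here, and the share of all genes without overlap was not counted. Fmod and Podn reached the minimum of 0.5 FPKM through the full-length NFIA samples alone and so had to differ, and their differences from those samples are given without a test at day 7, with and without forskolin.

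Asporin, which competes with decorin for collagen, was at 50.4, 53.6 and 44.4 FPKM in control cells at day 7 and at 2.71, 1.57 and 3.05 FPKM with full-length NFIA, 20.2 times lower. Omd was at 27.6, 35.7 and 25.9 FPKM in control cells and at 2.10, 3.19 and 1.98 FPKM with full-length NFIA, 12.3 times lower. Ogn was at 592, 736 and 505 FPKM in control cells and at 127, 132 and 122 FPKM with full-length NFIA, 4.80 times lower. All 3 neighbours thus fell past the test and 3-fold, with log2 differences of -3.90 ± 0.32, -3.17 ± 0.17 and -2.24 ± 0.18 and adjusted p-values of 1.59e-06, 6.58e-08 and 1.27e-06 (limma). Omd had been higher with full-length NFIA than in control cells at day 0 and was lower at day 7. Bgn and Dcn, the chondroitin or dermatan sulfate members, rose by less than 3-fold, Bgn from 833 ± 17.7 to 1400 ± 93.5 FPKM and Dcn from 128 ± 13.5 to 208 ± 15.5 FPKM. Lum did not pass the test (2.76 ± 0.353 and 2.08 ± 0.366 FPKM, log2 difference -0.29, 95% interval -0.61 to 0.03), but passed with a replicate block (adjusted p = 0.0243) and without replicate 2 of the mutant, whose samples share the fit (adjusted p = 0.0483, limma). Of the other 7 genes, 1 was called higher (Prelp) and 3 lower, beside 4.87% and 3.30% of the 12324 genes tested.

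In the same comparison the 8 adipocyte markers summed to 360 to 398 FPKM in control cells and 13485 to 15002 FPKM with full-length NFIA, and all 8 were called higher. The 9 muscle markers summed to 7540 to 8804 FPKM and 1360 to 1845 FPKM, and 7 of the 9 were called lower. The part of this shift of cell type in the proteoglycan values was not tested.

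The Δpro#3 mutant was set against control and full-length NFIA-expressing cells at day 7 to see which differences needed the pro#3 domain. With the mutant, Dcn rose to the highest level of any group, the chromosome 13 neighbours were low as with full-length NFIA, and Fmod and Podn were at 0.283 FPKM or less in every sample. Dcn was at 131, 140 and 114 FPKM in control cells and at 879, 581 and 614 FPKM with the mutant, 5.39-fold higher (log2 difference 2.40 ± 0.14, adjusted p = 1.63e-06, limma). It was also 3.32-fold above the 192, 223 and 209 FPKM of full-length NFIA-expressing cells. The highest Dcn value was that of replicate 1 of the mutant, which also had the highest Fabp4 of its group, an adipocyte lipid carrier, at 1415 FPKM against 294 FPKM in the lowest replicate. Without this replicate, Dcn remained higher than with full-length NFIA but under 3-fold (log2 difference 1.52, adjusted p = 6.65e-07, limma). Of the 7 genes other than Fmod and Podn, 0 were then called higher. Against control cells Dcn stayed past 3-fold without it (log2 difference 2.22).

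Fmod was at 0.283, 0.146 and 0.181 FPKM with the mutant at day 7, 152 times lower than with full-length NFIA, and rested on 10 fragments in each sample. It was 2.44 times the control level, with no overlap of the samples, which on the log2(FPKM + 1) scale was a difference of 0.15 (95% interval -0.04 to 0.34) that did not pass the test. With a pseudocount of 0.1 the difference was 0.71 and passed (adjusted p = 0.0142, limma). Podn was at 0.102, 0.0657 and 0.195 FPKM with the mutant, 178 times lower than with full-length NFIA, and its difference from control cells was 0.04 (95% interval -0.15 to 0.23). Prelp, by contrast with its neighbour Fmod, was at 45.8, 34.0 and 33.8 FPKM with the mutant, 6.16-fold above control cells (log2 difference 2.43 ± 0.12) and 4.93 times below full-length NFIA. Bgn fell with the mutant, to 488, 395 and 420 FPKM, with log2 differences of -0.94 ± 0.08 against control cells and -1.69 ± 0.08 against full-length NFIA. Bgn therefore differed from control cells in opposite directions with the 2 constructs.

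Aspn was at 2.41, 4.54 and 8.91 FPKM with the mutant at day 7, 9.36 times below control cells and 14.3 times without replicate 3. Omd was at 3.34, 3.20 and 4.79 FPKM, 7.87 times below control cells. Ogn was at 178, 226 and 301 FPKM, 2.60 times below control cells and so past the test but not past 3-fold, although it was called without replicate 3 of the mutant (log2 difference -1.59). For Aspn, Omd and Ogn the means were above those with full-length NFIA, by log2 differences of 0.76, 0.48 and 0.85, and the samples overlapped for Aspn. The difference passed the test for Ogn (adjusted p = 0.00191) and Omd (adjusted p = 0.0294) and not for Aspn (adjusted p = 0.0594, limma). These calls changed with the fit, since Omd did not pass without the filter on low values or with limma-voom (adjusted p = 0.0587 and 0.0878), and Aspn passed with limma-voom and with all 27 samples in 1 fit (adjusted p = 0.0201 and 0.0263). For Omd it was lost when 1 replicate was left out, with adjusted p-values of 0.111 without replicate 3 of the mutant and 0.0897 and 0.102 without replicates 1 and 3 of full-length NFIA, and for Aspn it passed without replicate 1 of the mutant (adjusted p = 0.00304). Without replicate 3 of the mutant, the ratio of mean Aspn to that with full-length NFIA went from 2.16 to 1.42. Lum was at 1.99 ± 0.544 FPKM, with no difference past the test from either other group, although that from control cells passed without replicate 1 of the mutant, with limma-voom, with all 27 samples in 1 fit and with a replicate block (adjusted p = 0.0201, 0.0324, 0.0355 and 0.0191, limma). Fmod and Podn were in this fit only through the full-length NFIA samples. Of the other 7 genes, 2 were called higher and 2 lower against control cells, beside 0.933% and 0.503% of all genes tested. Against full-length NFIA, 1 of the 7 genes other than Fmod and Podn was called higher (Dcn) and 2 lower (Prelp and Bgn), beside 2.60% and 3.70%. The 8 adipocyte markers summed to 632 to 2041 FPKM with the mutant and the 9 muscle markers to 8796 to 9231 FPKM, and the part of the adipocyte markers in the Dcn values was not tested.

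**Figure D3:**
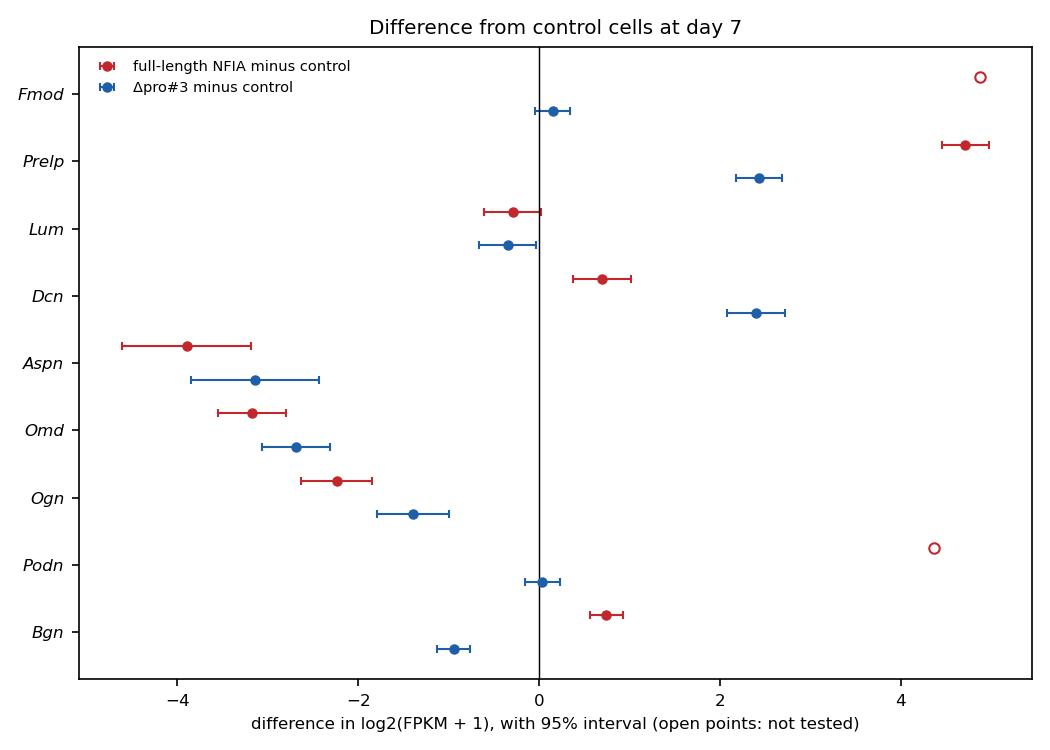
Difference from control cells at day 7 in log2(FPKM + 1), as the mean difference (point) with its 95% interval (line), for full-length NFIA (red) and Δpro#3 (blue). Fmod and Podn with full-length NFIA are drawn as open points without an interval, since they reached 0.5 FPKM through those samples alone and were not tested. Aspn, Omd and Ogn are below 0 with both, Dcn is further above 0 with the mutant, and Bgn is above 0 with full-length NFIA and below 0 with the mutant.

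The levels of the 9 genes were compared between the cell types also at day 7 with forskolin, in 9 further samples. Of the 7 genes other than Fmod and Podn, full-length NFIA gave 1 called higher (Prelp) and 3 called lower (Aspn, Omd and Ogn) against control cells, beside 4.25% and 3.77% of the 12121 genes tested. Fmod was at 27.3, 22.8 and 26.1 FPKM, Prelp at 114, 109 and 116 FPKM, and Podn at 12.0, 14.0 and 14.4 FPKM, and the highest control samples were at 0.0689, 4.37 and 0.250 FPKM for the respective genes. The mutant had 2 genes called higher against control cells (Prelp and Dcn) and 3 lower (Aspn, Omd and Ogn), beside 0.866% and 0.685% of all genes. Dcn was at 550, 481 and 443 FPKM with the mutant and at 122, 121 and 124 FPKM in control cells, 4.01-fold higher. Ogn was close to the 3-fold mark (log2 difference -1.59), and 2 genes in place of 3 were called lower without replicate 1 or 3 of either control or mutant cells, or with samples scaled by their median ratio. Against full-length NFIA, the mutant had 0 of these 7 genes called higher and 2 lower (Prelp and Bgn), beside 2.89% and 3.31% of all genes. Fmod was 3.99 times as high with the mutant as in control cells, with overlapping samples, and this difference did not pass the test on the log2(FPKM + 1) scale (adjusted p = 0.125, limma) but did with a pseudocount of 0.1, with limma-voom and without replicate 1 of the mutant (adjusted p = 0.0257, 0.0395 and 0.0316, limma). Lum, which did not pass the test at day 7, was at 1.22 ± 0.330 FPKM with full-length NFIA and 1.18 ± 0.121 FPKM with the mutant after forskolin, below the 2.17 ± 0.209 FPKM of control cells (log2 differences -0.52 and -0.54, adjusted p = 0.00124 and 0.00221, limma).

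Differentiation from day 0 to day 7 was then followed within each cell type, in a fit of the 18 samples without forskolin. In control cells Omd rose 6.19-fold, from 5.17, 4.54 and 4.70 FPKM to 27.6, 35.7 and 25.9 FPKM. Of the 7 genes other than Fmod and Podn, Omd was the 1 called higher, beside 3.65% of the 12408 genes tested. Of these 7 genes 0 were called lower, beside 3.05% of all genes, although Lum and Bgn fell past the test by log2 differences of -1.04 and -0.45. Aspn, Ogn and Dcn were near their day 0 levels in control cells, with log2 differences of 0.11, 0.14 and 0.14 that did not pass the test. The Prelp difference of 0.49 passed the test (adjusted p = 0.0293) but not without replicate 1 or 3 of day 0 or replicate 2 of day 7 (adjusted p = 0.201, 0.120 and 0.0961, limma) or without the filter on low values (adjusted p = 0.0555).

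In full-length NFIA-expressing cells the 3 chromosome 13 genes fell over the same time. Aspn fell from 34.4, 32.5 and 40.2 FPKM to 2.71, 1.57 and 3.05 FPKM, 14.6 times lower, and Omd fell from 26.3, 26.2 and 31.5 FPKM to 2.10, 3.19 and 1.98 FPKM, 11.5 times lower. Ogn fell from 392, 410 and 522 FPKM to 127, 132 and 122 FPKM. Dcn rose 3.24-fold. Podn was 18.6 times as high at day 7 as at day 0 and Fmod 4.51 times lower, both given with no test, since Podn reached the minimum of 0.5 FPKM through the day 7 samples with full-length NFIA alone. Of the other 7 genes, 1 was called higher and 3 lower, beside 5.38% and 4.71% of all genes. The Lum and Prelp differences of 0.43 and -0.53 passed the test (adjusted p = 0.0110 and 0.0205, limma), Lum not without replicate 1 of day 0 (adjusted p = 0.0748) and Prelp not without replicate 3 of day 0 or replicate 1 or 3 of day 7 (adjusted p = 0.0517, 0.0570 and 0.0511) or with samples scaled by their median ratio (adjusted p = 0.0878).

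In Δpro#3 mutant-expressing cells Dcn rose 15.7-fold, from 44.1, 44.1 and 43.7 FPKM to 879, 581 and 614 FPKM, with a log2 difference of 3.92 ± 0.13 (adjusted p = 6.52e-14, limma). Fmod went from 17.4 ± 0.374 to 0.203 ± 0.0713 FPKM, 85.6 times lower, which is given with no test. Bgn fell 2.30-fold, and Aspn, Omd and Ogn fell by log2 differences of -1.38, -0.61 and -0.59. Of the 7 genes other than Fmod and Podn, 1 was called higher and 0 lower, beside 3.91% and 2.93% of all genes, and Aspn was called lower without replicate 3 of day 7 (log2 difference -1.77). Prelp passed the test (log2 difference 0.48, adjusted p = 0.0310) but not without replicate 1 of day 7 or any 1 replicate of day 0 (adjusted p = 0.142, 0.0549, 0.0551 and 0.0752), with a pseudocount of 0.1 (adjusted p = 0.0558) or without the filter on low values (adjusted p = 0.0581).

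The change over time itself was compared between mutant-expressing and control cells by an interaction term, since neither of these contrasts used full-length NFIA. The change of Dcn was larger with the mutant by 3.78 ± 0.18 on the log2(FPKM + 1) scale (adjusted p = 1.29e-10) and that of Lum by 1.98 ± 0.20 (adjusted p = 7.68e-07). The changes of Omd, Aspn, Bgn and Ogn were more negative with the mutant, by -3.01, -1.49, -0.75 and -0.73 (adjusted p = 7.15e-09, 0.00297, 5.64e-06 and 0.0117, limma). These 2 higher and 4 lower of the 7 genes other than Fmod and Podn stood beside 18.9% and 25.9% of all genes. Lum went from 6.72 to 2.76 FPKM in control cells and from 0.540 to 1.99 FPKM with the mutant. The interaction of Prelp was -0.01 (95% interval -0.59 to 0.58). The control samples of day 0 enter this term and were part of the contrast by which Fmod was chosen.

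**Figure D4:**
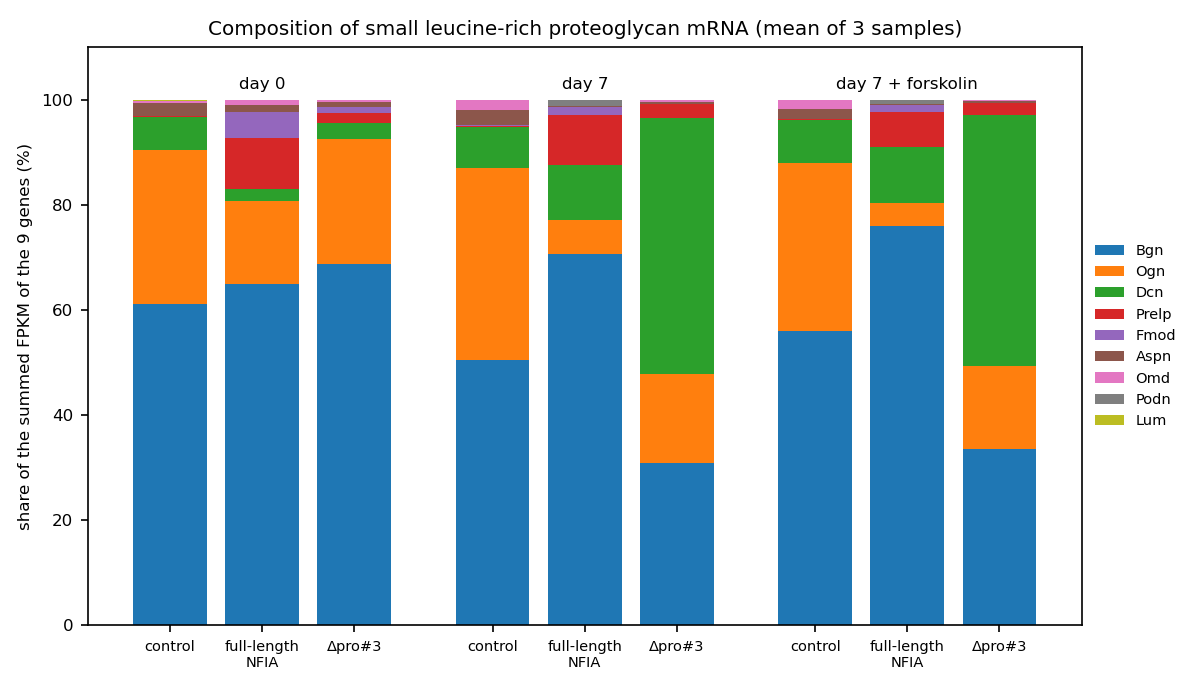
Share of each gene in the summed FPKM of the 9 genes, in percent, as the mean of 3 samples for each of the 9 groups. Bgn is the largest share in every group except Δpro#3 mutant-expressing cells at day 7 without and with forskolin, where Dcn is.

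Because FPKM is per length, the 9 genes could also be set side by side within a sample. The sum over the 9 genes was 1867 ± 34.5 FPKM in control cells at day 0 and ranged from 1027 to 2793 FPKM over the 9 group means, with the lowest in mutant-expressing cells after forskolin and the highest with full-length NFIA at day 0. In control cells at day 7, Bgn held 50.4% ± 3.70 of the sum, Ogn 36.6% ± 3.54 and Dcn 7.72% ± 0.215 (SD, n = 3). With full-length NFIA at day 7, Bgn held 70.7% ± 0.271, Dcn 10.5% ± 0.178, Prelp 9.41% ± 0.170 and Ogn 6.43% ± 0.346. With the mutant at day 7, Dcn held 48.7% ± 5.59, Bgn 30.9% ± 0.743 and Ogn 17.0% ± 5.39. At day 7 the largest of the 9 was thus Bgn in control and full-length NFIA-expressing cells and Dcn in mutant-expressing cells, where Bgn had held 68.6% at day 0 and Dcn 3.03%. At day 0, Prelp, Fmod and Omd held 9.62%, 4.99% and 1.00% with full-length NFIA and 0.234%, 0.0184% and 0.257% in control cells.

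Forskolin, given for 4 h, gave smaller differences, and they were counted at an adjusted p under 0.05 without a fold limit. Prelp fell in all 3 cell types, from 5.91, 6.88 and 5.66 to 4.37, 3.95 and 3.56 FPKM in control cells, from 177, 202 and 181 to 114, 109 and 116 FPKM with full-length NFIA, and from 45.8, 34.0 and 33.8 to 21.4, 23.0 and 24.1 FPKM with the mutant. The samples with and without forskolin did not overlap, and the level fell 1.55-, 1.65- and 1.66-fold (adjusted p = 0.00119, 1.71e-05 and 5.82e-05, limma). Fmod and Podn were in this fit only through full-length NFIA, and in control and mutant-expressing cells their levels left little room for a fall. Of the other 7 genes, Prelp was the 1 that fell in control cells, beside 13.5% of the 12245 genes tested, and 0 rose, beside 7.05%, although with limma-voom Aspn fell too (log2 difference -0.78, adjusted p = 0.0210). With full-length NFIA 5 of all 9 genes fell (Fmod, Prelp, Lum, Ogn and Podn), beside 41.5% of all genes, and 0 rose, beside 13.9%. With the mutant 6 of the 7 genes other than Fmod and Podn fell (Prelp, Lum, Dcn, Omd, Ogn and Bgn), beside 23.9%, and 0 rose, beside 11.9%. Those counts changed with single samples, between 4 and 6 with full-length NFIA and between 3 and 6 with the mutant, the lowest, 4 and 3, without replicate 2 of full-length NFIA in either condition and without replicate 3 of the forskolin-treated mutant.

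Podn was at 19.7, 23.2 and 21.6 FPKM without and at 12.0, 14.0 and 14.4 FPKM with forskolin in full-length NFIA-expressing cells, a fall of 1.59-fold (log2 difference -0.63, adjusted p = 8.89e-06, limma). In control cells it was at 0.0568, 0.0686 and 0.148 FPKM without and at 0.236, 0.217 and 0.250 FPKM with forskolin, with no overlap, which did not pass the test (adjusted p = 0.150) but did with a pseudocount of 0.1 (log2 difference 0.84, adjusted p = 0.0190, limma). The responses of Podn in these cell types are set side by side without a test, since on the log2(FPKM + 1) scale the control level left little room for a fall. Of the genes other than Fmod and Podn, 0 of 7 passed for the difference in forskolin response between full-length NFIA-expressing and control cells, beside 9.16% of all genes higher and 21.5% lower, and 0 of 7 for that between mutant-expressing and control cells, beside 2.47% and 2.50%. In the latter, Bgn passed without replicate 1 of the forskolin-treated mutant (-0.47, adjusted p = 0.0304) and with all 27 samples in 1 fit (-0.37, adjusted p = 0.0420, limma). The Fmod fall with full-length NFIA was 1.22-fold (adjusted p = 0.0162) and was lost without replicate 2 of either condition (adjusted p = 0.0965 and 0.0943). Ogn fell 1.66-fold with full-length NFIA (adjusted p = 0.00166). With the mutant, the fall of Ogn was lost without replicate 3 of day 7 or replicate 1 or 3 with forskolin (adjusted p = 0.132, 0.0796 and 0.0594) and without the filter on low values (adjusted p = 0.0501), that of Lum without replicate 1 of day 7 or replicate 3 with forskolin (adjusted p = 0.0949 and 0.0622), and that of Bgn without the same 2 samples (adjusted p = 0.0651 and 0.0693). Dcn fell 1.41-fold and Omd 2.22-fold with the mutant (adjusted p = 0.00672 and 0.00192, limma), and the log2 difference of Dcn went from -0.47 to -0.29 without replicate 1 of day 7. Omd with full-length NFIA was just outside the threshold (adjusted p = 0.0506) and passed without replicate 3 of day 7, with 4 of the control or mutant samples left out in turn, and in 4 of the 8 alternatives. When each sample was scaled by its median ratio, which moved the median of all genes by 0.13 on the log2 scale for full-length NFIA, the fall of Fmod with full-length NFIA did not pass (adjusted p = 0.346).

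**Figure D5:**
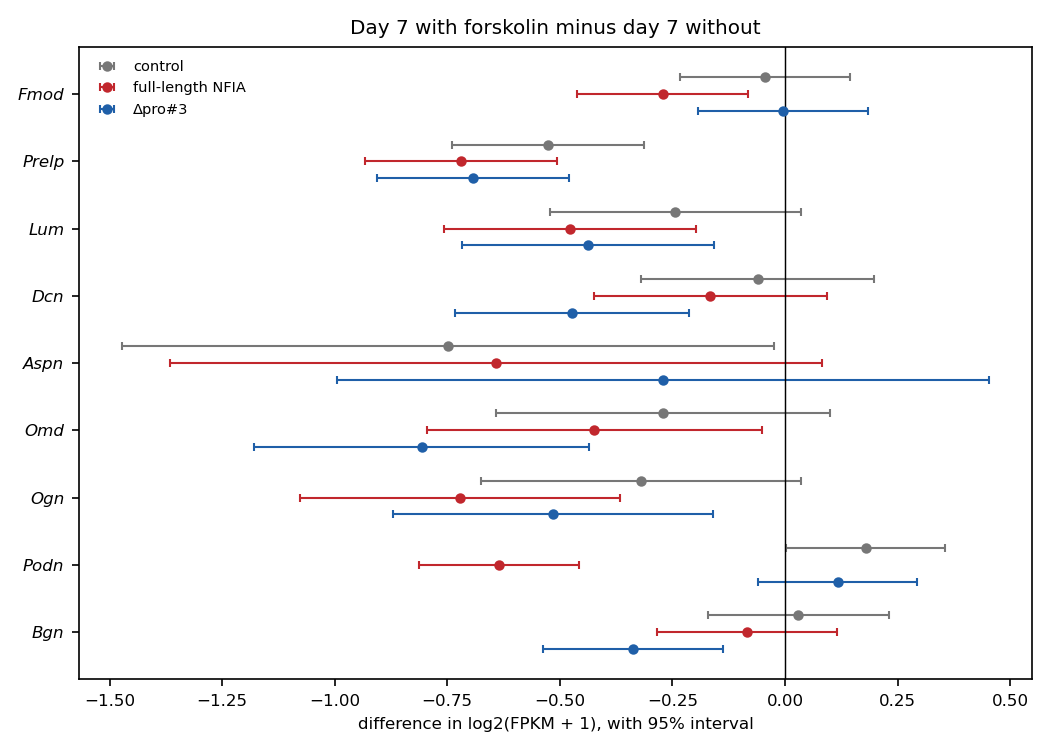
Difference in log2(FPKM + 1) between day 7 with and without forskolin, as the mean difference (point) with its 95% interval (line), in control (gray), full-length NFIA-expressing (red) and Δpro#3 mutant-expressing cells (blue). The intervals of Prelp lie below 0 in all 3 cell types, and Podn is below 0 with full-length NFIA alone.

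In the order of group means, Fmod ran from 139 FPKM with full-length NFIA at day 0 through 30.9 and 25.4 FPKM with full-length NFIA at day 7 without and with forskolin and 17.4 FPKM with the mutant at day 0, each neighbour apart from the next. The other 5 groups had means of 0.0508 to 0.345 FPKM, and each overlapped its neighbour in that order. Over the 27 samples, which form 9 groups of 3 and share the depth of their libraries, the genes whose log2(FPKM + 1) was most like that of Fmod among 8263 genes were Cdhr1, Sc5d, Fuca1, Timp3 and Yif1b, with Pearson's r of 0.986, 0.981, 0.980, 0.972 and 0.967. Timp3, an inhibitor of matrix proteases, was at 41.3 FPKM in control and 365 FPKM in full-length NFIA-expressing cells at day 0 and at 24.1 and 147 FPKM at day 7. Sc5d encodes an enzyme of cholesterol synthesis and Fuca1 a lysosomal fucosidase. Prelp, with r = 0.860, was number 117 in that order.

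The genes that work with these proteoglycans were described at day 7 as lists, with the median over all genes tested of -0.08 on the log2 scale for full-length NFIA against control cells and -0.04 for the mutant. Of all genes tested at day 7, 31.3% passed higher and 41.1% lower with full-length NFIA against control cells, and 21.3% passed higher and 27.5% lower with the mutant, and the counts that follow are to be read beside these shares. Of the other 9 family members, 4 were high enough (Tsku, Podnl1, Ecm2 and Chadl), but Chadl reached 0.5 FPKM through the full-length NFIA samples alone. Of the other 3, 1 passed higher and 1 lower with full-length NFIA (median log2 difference 0.25), and of the 4, 1 passed higher and 1 lower with the mutant (median -0.07). Podnl1, named although it was not called, fell from 9.66 to 4.68 FPKM with full-length NFIA and to 6.47 FPKM with the mutant (log2 differences -0.92 and -0.51). Tsku, which encodes the secreted proteoglycan tsukushi, was called higher with full-length NFIA, from 3.31 to 14.5 FPKM, and was at 4.29 FPKM with the mutant. Ecm2, the next gene to Aspn, was at 1.55 ± 0.331 FPKM in control cells and 2.02 ± 0.353 FPKM with full-length NFIA at day 7. Of 12 collagen genes, 5 passed higher and 5 lower with full-length NFIA (median log2 difference -0.10), and 4 higher and 7 lower with the mutant (median -0.33). Col1a1, the main chain of fibrillar collagen, fell from 217 to 58.5 FPKM with full-length NFIA and was at 79.4 FPKM with the mutant. Col6a2, a chain of the microfibrillar collagen that decorin and biglycan bind, rose from 55.4 to 353 FPKM with full-length NFIA and was at 43.7 FPKM with the mutant, and Col5a3 rose from 2.87 to 32.3 and 17.4 FPKM.

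Of 12 genes of collagen crosslinking and fibril assembly, 6 passed higher and 5 lower with full-length NFIA (median 0.20) and 6 higher and 3 lower with the mutant (median 0.42). Tnxb, a tenascin that spaces fibrils, rose from 0.0220 to 24.1 FPKM with full-length NFIA and to 1.11 FPKM with the mutant. The collagen propeptidase enhancer Pcolce2 rose from 7.77 to 59.2 and 36.8 FPKM, and the crosslinking oxidase Loxl1 fell from 55.8 to 13.0 and 26.7 FPKM. Of 22 tested genes of glycosaminoglycan chain synthesis, 9 passed higher and 8 lower with full-length NFIA and 4 higher and 8 lower with the mutant, and 0 were called in either. Of 14 genes of TGF-beta ligands, receptors and latency, 6 passed higher and 6 lower with full-length NFIA and 4 higher and 3 lower with the mutant. Ltbp3, which holds TGF-beta in the matrix, rose from 37.6 to 153 and 71.2 FPKM. Ctgf, a target of TGF-beta, fell from 67.6 to 12.8 FPKM with full-length NFIA and rose to 191 FPKM with the mutant.

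Of the 7 tested cell surface receptors, 2 passed higher and 4 lower with full-length NFIA and 1 higher and 3 lower with the mutant (medians -0.56 and -0.20). Lrp1, an uptake receptor for decorin, was against the direction of most of the list and rose from 68.1 to 221 and 193 FPKM. Of 7 proteases, Adamts15 reached 0.5 FPKM through the full-length NFIA samples alone, 2 of the other 6 passed higher and 3 lower with full-length NFIA, and 2 of the 7 passed higher and 3 lower with the mutant. Adamts9 rose from 0.648 to 7.64 and 1.49 FPKM. As to other cells that are rich in these proteoglycans, 4 of 7 fibroblast and progenitor markers, 1 of 5 tendon markers and 3 of 6 cartilage and bone markers were high enough to be tested. With full-length NFIA, 2, 1 and 2 of them passed higher and 0, 0 and 1 lower, among them Cd34 (12.9 to 107 FPKM), Bglap (0.389 to 20.2 FPKM) and Sox9 (3.08 to 12.9 FPKM). With the mutant, Cd34 was at 62.0 FPKM, Bglap at 10.9 FPKM and Sox9 at 3.69 FPKM. The summed level of the fibroblast and progenitor markers was 249 to 303 FPKM in control cells, 622 to 724 FPKM with full-length NFIA and 1096 to 1448 FPKM with the mutant at day 7. Of the 4 tested, 2 passed higher and 1 lower with the mutant against control cells (median log2 difference 1.07), and 1 higher and 2 lower against full-length NFIA (median -0.23), beside 34.3% and 29.4% of all genes. The part of these markers in the Dcn difference was not tested. The tendon marker Kera was at 0 in 26 of the 27 samples and rested on 1 fragment in the other.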

How the data were processed

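Polyadenylated RNA of 27 C2C12 samples (9 groups of 3, taken from the labels) was analysed. The authors aligned reads to mm9 with STAR 2.5.3a (per the submitters' processing notes), retained reads with 1 mapped place, assigned fragments to genes by strand and deposited FPKM and a gene length for each sample, without scaling between samples. All deposited values were whole multiples of 1 fragment (100%, tolerance 0.02), so fragment numbers could be recovered from them. The 9 genes, the gene lists and the named genes were chosen with earlier results of these data known.

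Differences of log2(FPKM + 1) were fitted with limma 3.58.1 in R 4.3.3, with a mean-variance trend, over genes with a mean of 0.5 FPKM or more in the samples fitted (9 of 1 time point, or 18 of 2). Values after ± are SE for log2 differences and SD for FPKM and shares. P-values are 2-sided and adjusted by Benjamini-Hochberg over all genes tested. A gene passed at an adjusted p under 0.05 and was called when FPKM + 1 also differed more than 3-fold; fold values in the text are ratios of mean FPKM. From each list, up to 3 genes with the largest difference were named among those called with full-length NFIA against control cells or with the mutant against full-length NFIA at day 7. Genes that reached 0.5 FPKM only through the higher group of a comparison, and Fmod wherever day 0 entered, were left out of the counts between cell types and over time. Podn, and Fmod at day 7, were in the fits only through full-length NFIA samples. They were also left out of counts that compared only control and mutant-expressing cells or their responses. The fit was tested on simulated data. Same-numbered replicates did not deviate together (mean correlation of 0.0139 at day 0, -0.0314 at day 7 and -0.00195 with forskolin), so no replicate block was used. Promoter windows are RefSeq sequences on GRCm38.p6, and protein sequences were not analysed here. Alternatives are given at the end.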

Additional observations from a re-analysis of the deposited data

Results flagged for a closer look

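Leaving out Fmod and Podn, 6 differences of a response between 2 cell types among the other 7 genes passed the threshold of an interaction term (adjusted p under 0.05, limma on log2(FPKM + 1)), 2 higher and 4 lower, beside 18.9% and 25.9% of all genes over time. The change from day 0 to day 7 differed between Δpro#3 mutant-expressing and control cells by 3.78 for Dcn, 1.98 for Lum, -3.01 for Omd, -1.49 for Aspn, -0.75 for Bgn and -0.73 for Ogn on the log2 scale. For Omd, the 3 control samples were all higher at day 7 than at day 0 and the 3 mutant samples all lower. For Dcn, the mutant samples at day 7 were 581 to 879 FPKM and the control samples 114 to 140 FPKM, and at day 0 they had been at 43.7 to 44.1 FPKM and 113 to 122 FPKM.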

How the results depend on the processing

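The 9 genes' differences were computed again under 8 alternatives and without each sample in turn. Of 1264 differences under the 8 alternatives, 44 changed their side of the threshold or their sign, and the sign changed only in differences that did not pass the test in either analysis. Counts here include Fmod and Podn, except that those over time leave out Fmod. The counts called between cell types were within 1.5 times under all 8, except that the Δpro#3 mutant against full-length NFIA with forskolin had 1 gene called higher in place of 0 with a pseudocount of 0.1 and with limma-voom on fragments. Over time, limma-voom called 2 genes higher in control cells, 1 of them Podn, which rested there on 7 fragments at day 0 and 13 at day 7. With a pseudocount of 0.1 and with limma-voom 2 were higher with the mutant. With forskolin in control cells, 1 gene passed higher with a pseudocount of 0.1 and 2 passed lower with limma-voom. The cause was not tested.

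Median-ratio scaling moved the median of all genes by 0.17 (full-length NFIA against control cells with forskolin), -0.12 (mutant against full-length NFIA with forskolin) and 0.13 and 0.12 (over time with full-length NFIA and the mutant). With it, the forskolin difference became 0.0084 (Dcn, control), 0.0038 (Dcn, full-length NFIA), 0.087 (Bgn, full-length NFIA) and 0.0064 (Fmod, mutant), and the difference of the change over time of Prelp 0.075. The difference in forskolin response between full-length NFIA and control cells became 0.0039 for Fmod and -0.21 for Aspn with a pseudocount of 0.1, -0.030 for Aspn with 0.5, and 0.30 for Fmod and -0.15 for Aspn with limma-voom, under which the difference over time of Podn was -0.38. The fall of Fmod with forskolin in full-length NFIA-expressing cells did not pass with a pseudocount of 0.1 or 0.5 (adjusted p = 0.382 and 0.0658, limma).

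Without 1 sample at a time, genes called higher with the mutant against full-length NFIA at day 7 ran from 0 to 1, and genes lower with forskolin in the mutant from 3 to 6. Over time with the mutant, where Fmod was not tested, Aspn was called lower without replicate 3 of day 7. Differences whose sign changed ran, for the mutant against control cells, from -0.0087 to 0.075 (Podn, day 7) and -0.070 to 0.035 (Podn, forskolin), and for the mutant against full-length NFIA from -0.18 to 0.085 (Lum, day 7) and -0.092 to 0.10 (Lum, forskolin). Ogn over time in control cells ran from -0.0066 to 0.27. With forskolin they ran from -0.15 to 0.0055 (Dcn, control), -0.0022 to 0.046 (Bgn, control), -0.050 to 0.082 (Fmod, mutant) and -0.65 to 0.13 (Aspn, mutant). Differences between responses ran from -0.18 to 0.30 (Aspn) and -0.37 to 0.0023 (Omd) for full-length NFIA, -0.0055 to 0.13 (Fmod) for the mutant, and, over time, -0.34 to 0.22 (Prelp) and -0.033 to 0.051 (Podn). None of these differences passed the test with all samples.

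The replicate numbers share only a number. With a replicate block, Lum against control cells at day 7 passed with full-length NFIA (log2 difference -0.29, adjusted p = 0.0243) and with the mutant (-0.34, adjusted p = 0.0191). The block changed no other call of the 9 genes. At day 7, levels of Fmod and Podn rested on few fragments in control cells (11 for Fmod and 13 for Podn) and with the mutant (30 and 21), which limits their folds.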
